A study of Mus musculus with 7 samples.

Results

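Olr1, which encodes the lectin-like receptor for oxidised LDL (LOX-1), and 8 other scavenger receptors for modified lipoproteins were followed in mature white adipocytes of Adipoq-F2-KO mice and their floxed controls. The 9 genes were Olr1, Msr1, Marco, Scarb1, Scarb2, Scarf1, Stab1, Stab2 and Colec12. They were listed by the function of their proteins and found by symbol among 57010 gene identifiers, and all 9 passed the filter on low counts that left 17039 genes for testing. Olr1 heads the group because it was selected on its genotype difference in these same libraries. Its difference is therefore given as a description, without a p-value.

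The study asked how deletion of FFA2, the receptor for short-chain fatty acids encoded by Ffar2, alters the transcripts of adipocytes under basal feeding. Polyadenylated RNA was sequenced from adipocytes released from perigonadal fat by collagenase, giving 3 libraries of FFA2 fl/fl and 4 of Adipoq-F2-KO genotype. All mice were male littermates of the floxed line, housed together, fed Teklad LM-485 chow (the SC diet) and killed at 20 weeks of age per the labels. The FFA2 fl/fl mice carry the floxed alleles without Cre, and the Adipoq-F2-KO mice carry the same alleles with Cre driven by the adiponectin promoter, so that deletion is limited to cells that use this promoter and FFA2 of other cell types is left in place. No mouse carrying Cre without floxed alleles was analysed here, so effects of the transgene and of the deletion cannot be told apart.

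Each library held between 30478997 and 39992605 counts. Mitochondrial genes took 4.41%, 5.77% and 4.98% of the counts in FFA2 fl/fl and 7.82%, 6.61%, 9.24% and 10.3% in Adipoq-F2-KO libraries. This share was thus higher in every knockout library than in any control, and its part in the differences below was not tested. Values are given as CPM after TMM scaling, called normalized CPM, and each fold change sets the knockout over the floxed controls. The targeted transcript matched the labels in every library, with Ffar2 at 37.5, 33.9 and 32.0 normalized CPM in the FFA2 fl/fl libraries against 1.68, 1.15, 1.33 and 2.58 in the Adipoq-F2-KO libraries. Adipocyte markers were abundant throughout, with a summed level of 34650 to 50270 normalized CPM over 11 genes, and markers of macrophages (461 to 690 over 20 genes) and of vascular endothelium (1168 to 2511 over 11 genes) were present in every library. The sum of Prm1, Prm2 and 4 other germ cell transcripts reached 135.8 in Adipoq-F2-KO library 2 and lay between 0 and 12.4 in the others. Because these are bulk libraries, a higher transcript level from more cells of a type and one from more RNA per cell cannot be told apart.

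Scavenger receptors are membrane proteins that bind chemically altered lipoproteins, dying cells and microbial surfaces and carry them into the cell. Many of them are not shut down as cholesterol accumulates, and they are best known for loading macrophages of the artery wall with lipid. They share a kind of ligand rather than a common ancestor, and fall into classes by structure. In fat, they are made by adipocytes, by the macrophages between them and by the endothelium of the vessels.

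Olr1 lies among the C-type lectin genes of chromosome 6. LOX-1 was found on endothelial cells and is also made by macrophages, smooth muscle and adipocytes, and its gene is known to respond to inflammatory cytokines and, in adipocytes, to PPARg. Olr1 (ENSMUSG00000030162) occupies bases 129462207 to 129484128 on the minus strand in the coordinates of the deposited table. The GENCODE M21 annotation of GRCm38, the build named in the submitters' processing notes, places the gene at 129485244 to 129507165, so the table was counted on other coordinates, although the span is 21922 bases in both. The 250 bases upstream of the Olr1 start are shown because Olr1 was the one receptor of the group with a large genotype difference. They are from RefSeq on GRCm38.p6, chr6:129507166-129507415, minus strand, with matches to TGANTCA (the AP-1 element) and to AGGTCA (the core bound by many nuclear receptors) in capitals:
Olr1 upstream: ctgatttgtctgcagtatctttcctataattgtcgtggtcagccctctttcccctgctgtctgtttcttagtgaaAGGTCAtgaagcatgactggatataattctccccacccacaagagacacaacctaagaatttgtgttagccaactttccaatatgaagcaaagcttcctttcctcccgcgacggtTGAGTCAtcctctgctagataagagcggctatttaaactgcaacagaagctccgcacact
The AP-1 match begins 60 bases before the start and the AGGTCA match 175 bases before it, and no match to the degenerate NF-kB consensus was found on either strand of this window. Among 32851 promoters of the same length, searched on both strands, 6.75% held TGANTCA, 14.0% held AGGTCA and 3.90% held the NF-kB consensus. The elements were chosen with the sequence in view and a match is a description of letters, not of binding. Promoters of 5 of the 9 receptors were in the RefSeq table used, and among the other 4 of these (Marco, Scarb2, Stab1 and Stab2) Stab2 held an AGGTCA 164 bases before its start and Scarb2 an NF-kB match 199 bases before its start, with no match to the 3 elements in the other 2.

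The receptors differed in level far more than between genotypes. Compared per kilobase of exon (normalized CPM per kb), Scarb2 was the most abundant, with a mean of 21.5 over the 7 libraries, followed by Scarb1 at 17.6. Stab1 at 7.88 and Scarf1 at 7.72 lay next, then Colec12 at 3.68, Olr1 at 1.84 and Marco at 1.40. Msr1 at 0.408 and Stab2 at 0.150 were the lowest. Neighbours in this order were compared within libraries by an exact two-sided sign-flip permutation test on log2(level + 0.01), adjusted over the 8 neighbouring pairs. In 5 pairs the upper gene was higher in 7 of 7 libraries, at an exact p = 0.0156, the smallest that 7 libraries allow, and an adjusted p = 0.025. These steps were Scarb1 over Stab1 (1.17 on the log2 scale), Scarf1 over Colec12 (1.06), Colec12 over Olr1 (1.24), Marco over Msr1 (1.58) and Msr1 over Stab2 (1.36).

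In the 3 remaining pairs the difference in level did not exceed the spread between libraries. Scarb2 was above Scarb1 in 6 of 7 libraries, by 0.31 on the log2 scale (exact permutation test, adjusted p = 0.0833). Stab1 and Scarf1 differed by 0.02 (4 of 7 libraries, exact permutation test, adjusted p = 0.75), and Olr1 and Marco by 0.40 (4 of 7 libraries, exact permutation test, adjusted p = 0.464). The place of Olr1 beside Marco differed between the genotype means. Mean levels per kilobase were 0.793 for Olr1 and 1.44 for Marco in FFA2 fl/fl libraries, and 2.62 and 1.37 in Adipoq-F2-KO libraries. Single libraries did not all follow these means. Olr1 was above Marco in FFA2 fl/fl library 3 (0.804 against 0.609) and below it in Adipoq-F2-KO library 3 (2.92 against 3.05). Whether the order depends on the genotype was not tested. Olr1 was the 6th or 7th of the 9 receptors per kilobase in every library. Its mean was 0.793 ± 0.242 (SD, n = 3) in FFA2 fl/fl and 2.62 ± 0.353 (SD, n = 4) in Adipoq-F2-KO adipocytes, so that even in the knockout its level per kilobase was below that of Colec12 in each library. With any 1 library left out, the smallest p that the remaining 6 allow is 0.0312, and the number of pairs with an adjusted p under 0.05 was 0, except without Adipoq-F2-KO library 4, where it was 6. In each fit with 0, 5 pairs stood at that smallest p (exact permutation test, adjusted p = 0.05). They missed the threshold through the number of libraries, with the upper gene higher in every library left.

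**Figure D1:**
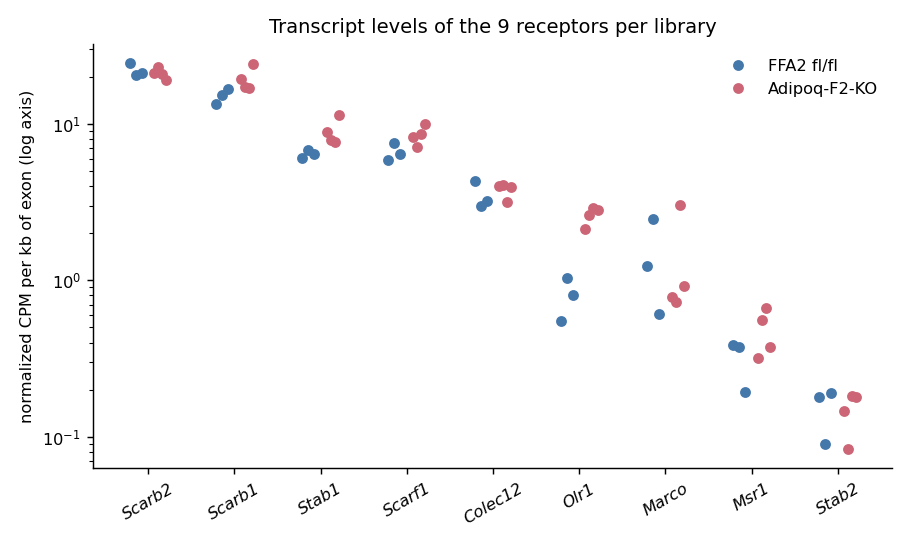
Level of each receptor in each library (points) as normalized CPM per kb of exon on a log axis, with FFA2 fl/fl libraries in blue and Adipoq-F2-KO libraries in red, and genes ordered by their mean over 7 libraries. Scarb2 and Scarb1 lie at the top near 20, Stab2 at the bottom near 0.15, and the colours separate clearly for Olr1.

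Olr1 itself stood at 1.95, 3.68 and 2.87 normalized CPM in the FFA2 fl/fl libraries (73, 146 and 98 counts). It stood at 7.58, 9.36, 10.4 and 10.04 normalized CPM in the Adipoq-F2-KO libraries (302, 308, 377 and 296 counts). The lowest knockout library lay well above the highest control. The means were 2.83 ± 0.866 (SD, n = 3) and 9.35 ± 1.26 (SD, n = 4), a ratio of 3.30, and the fitted log2 fold change was 1.72 (standard error 0.24, 95% interval 1.20 to 2.24). The coefficient of variation was 13.5% in the knockout libraries and 30.6% in the controls. The controls held fewer counts of Olr1 and fewer libraries, and the difference in spread was not tested. With single libraries left out the log2 fold change of Olr1 ranged from 1.51 (without FFA2 fl/fl library 1) to 1.96 (without FFA2 fl/fl library 2).

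Msr1, Marco and Colec12 belong to class A, trimers with a collagen-like stalk. Msr1 is the macrophage receptor through which acetylated LDL was first shown to enter cells. It stood at 2.43, 2.37 and 1.23 normalized CPM in FFA2 fl/fl and at 2.01, 3.52, 4.20 and 2.37 in Adipoq-F2-KO libraries. The genotypes overlapped, with 2 of 4 knockout libraries above every control. The log2 fold change was 0.59 (standard error 0.36, 95% interval -0.20 to 1.38, edgeR adjusted p = 0.421), so that both no change and a log2 increase of 1 lay within the interval. The value was 0.35 with FFA2 fl/fl library 3 left out and 0.39 with Adipoq-F2-KO library 3 left out.

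Marco, a receptor of resident tissue macrophages that binds bacteria and particles, was the most uneven of the 9. Its levels were 2.38, 4.79 and 1.17 normalized CPM in FFA2 fl/fl libraries and 1.51, 1.40, 5.86 and 1.76 in Adipoq-F2-KO libraries. One library of each genotype was high, FFA2 fl/fl library 2 and Adipoq-F2-KO library 3, and the highest was about 4 times the lowest within each genotype (4.09 and 4.20). The log2 fold change was -0.08 (standard error 0.57, 95% interval -1.33 to 1.17, edgeR adjusted p = 0.962). The sign followed the libraries used, and it was positive (0.57) with FFA2 fl/fl library 2 left out. Timd4, another gene of resident macrophages, was at 1.41 in FFA2 fl/fl library 2 and 1.94 in Adipoq-F2-KO library 3, and at 0.790 to 2.65 in the rest.

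Colec12, a collectin of endothelial and stromal cells that binds oxidised LDL and carbohydrates, stood at 37.7, 26.1 and 28.2 normalized CPM in FFA2 fl/fl and at 34.9, 35.6, 27.6 and 34.5 in Adipoq-F2-KO libraries. Adipoq-F2-KO library 3 lay among the 2 lower controls and the other knockout libraries between them and the highest control. The log2 fold change was 0.11 (standard error 0.14, 95% interval -0.20 to 0.43, edgeR adjusted p = 0.729). It moved from 0.0062 with FFA2 fl/fl library 2 left out to 0.29 with FFA2 fl/fl library 1 left out.

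Scarb1 and Scarb2 are class B proteins, relatives of CD36 with a membrane anchor at each end. Scarb1, the HDL receptor SR-BI that takes up cholesteryl esters selectively, stood at 114, 130 and 143 normalized CPM in FFA2 fl/fl and at 165, 148, 145 and 205 in Adipoq-F2-KO libraries. All 4 knockout libraries lay above all 3 controls, although Adipoq-F2-KO library 3 exceeded FFA2 fl/fl library 3 by little. The log2 fold change was 0.36 (standard error 0.13, 95% interval 0.08 to 0.65), and it missed the threshold after adjustment over all genes (edgeR adjusted p = 0.184). With Adipoq-F2-KO library 4 left out, Scarb1 had a log2 fold change of 0.24.

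Scarb2 encodes LIMP-2, which spans the lysosomal membrane and takes part in delivering enzymes to the lysosome. It stood at 154, 130 and 133 normalized CPM in FFA2 fl/fl and at 133, 146, 131 and 120 in Adipoq-F2-KO libraries. The genotypes overlapped, and its log2 fold change was -0.07 (standard error 0.10, 95% interval -0.28 to 0.14, edgeR adjusted p = 0.747). This was the narrowest interval of the 9 receptors.

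Scarf1, Stab1 and Stab2 carry EGF-like repeats outside the cell and are receptors of endothelium, with Stab1 also made by tissue macrophages. Stab1, stabilin-1, clears acetylated LDL and secreted matrix proteins. It stood at 62.0, 69.9 and 65.8 normalized CPM in FFA2 fl/fl libraries, a narrow set, and at 91.8, 80.8, 79.0 and 118 in Adipoq-F2-KO libraries. All 4 knockout libraries lay above all 3 controls and Adipoq-F2-KO library 4 was the highest. The log2 fold change of Stab1 was 0.49 (standard error 0.14, 95% interval 0.19 to 0.79, edgeR adjusted p = 0.107). It missed the threshold in this fit and passed it with DESeq2 (adjusted p = 0.0162), the tool of the study. Stab1 overlaps Nt5dc2 on the opposite strand, which was at 9.38 normalized CPM or less, and whether counting used the strand is not stated.

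Scarf1, which takes up acetylated LDL and apoptotic cells, stood at 17.1, 21.9 and 18.6 normalized CPM in FFA2 fl/fl and at 23.98, 20.6, 24.9 and 28.9 in Adipoq-F2-KO libraries. In 3 of 4 knockout libraries it was above every control. Its log2 fold change was 0.36 (standard error 0.14, 95% interval 0.05 to 0.66, edgeR adjusted p = 0.212). Stab2, the hyaluronan receptor of sinusoidal endothelium, was barely present, at 1.58, 0.781 and 1.67 normalized CPM in FFA2 fl/fl and 1.28, 0.729, 1.60 and 1.56 in Adipoq-F2-KO libraries. Its log2 fold change was -0.05 with a 95% interval of -1.03 to 0.92 (edgeR adjusted p = 0.970), so a change of up to about the size of that bound in either direction was not detectable at 24 to 59 counts per library.

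**Figure D2:**
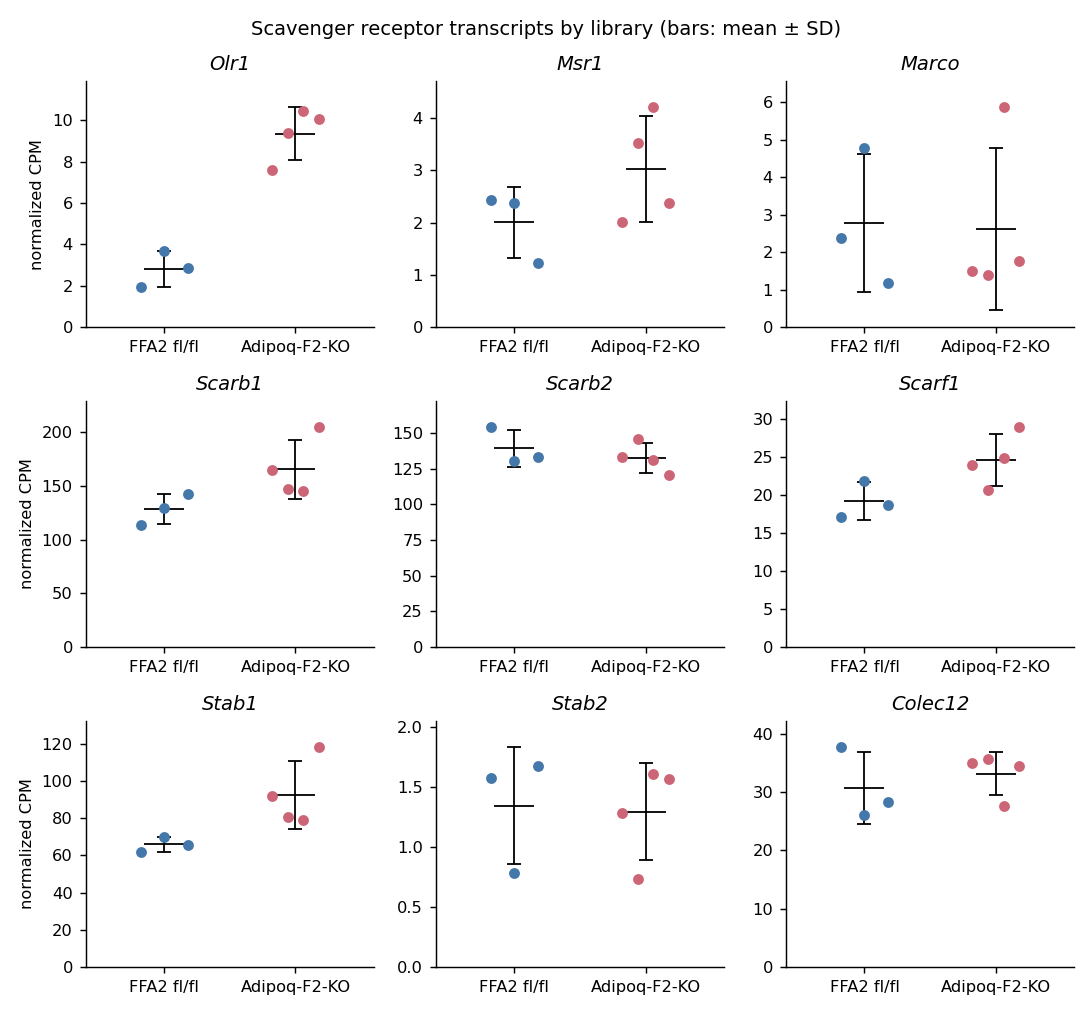
Normalized CPM of each of the 9 receptors in each library (points; FFA2 fl/fl in blue, n = 3, Adipoq-F2-KO in red, n = 4) with the mean and SD of each genotype as black lines, on linear axes from 0. Olr1, Scarb1 and Stab1 are the panels without overlap, and Marco shows 1 high library in each genotype.

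Set side by side, 1 of the 9 receptors was called higher in the knockout adipocytes and 0 were called lower (edgeR quasi-likelihood test, adjusted p under 0.05), and the 1 was Olr1, which was selected on this contrast. Over all tested genes 0.798% were called higher and 0.217% lower. Nothing is read from that count, which was 0 with FFA2 fl/fl library 1 or 3 or Adipoq-F2-KO library 2 or 3 left out. Of the other 8, 0 were called with edgeR, 3 were higher at an unadjusted p under 0.05 (Scarb1, Scarf1 and Stab1) and 1 was called with DESeq2 (Stab1), while the edgeR fit with a filter of at least 1 count called 2 (Scarb1 and Stab1). Among all genes 10.5% were higher and 7.37% lower at an unadjusted p under 0.05, DESeq2 called 4.67% higher and 1.53% lower, and the filter of at least 1 count gave 3.76% higher and 1.16% lower. A positive log2 fold change was shown by 5 of those 8. Apart from Olr1, all Adipoq-F2-KO libraries lay above all FFA2 fl/fl libraries for Scarb1 and Stab1 of the 8, against 8.86% of all tested genes. They lay below for 0 of the 9, against 8.72%. The median log2 fold change was 0.36 over the 9 and 0.23 without Olr1, beside 0.0037 over all tested genes. The summed level of the 9 was 390 to 395 normalized CPM in FFA2 fl/fl and 430 to 522 in Adipoq-F2-KO libraries, of which Scarb1, Scarb2 and Stab1 made up 82.6% to 86.4%. Olr1 contributed little to this total. Its log2 fold change was the largest of the group, which its selection on this contrast made likely in advance, and nothing is read from that place.

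**Figure D3:**
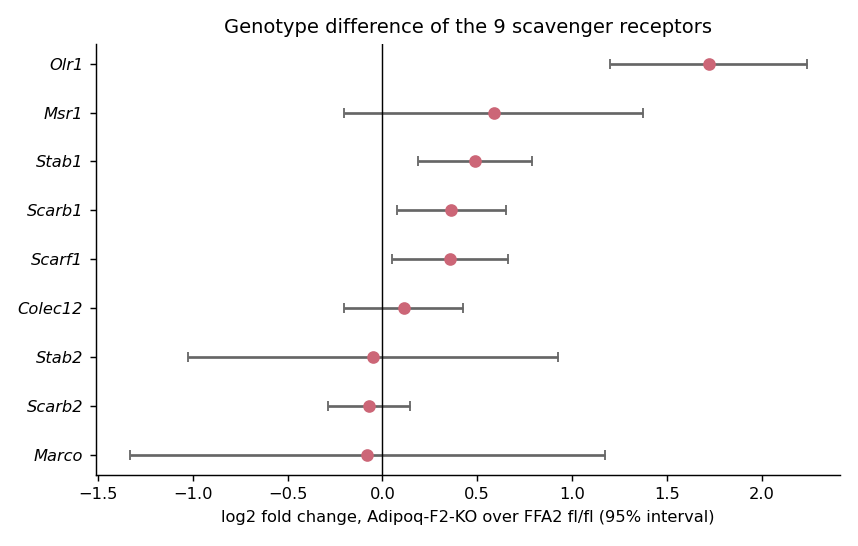
Fitted log2 fold change of each receptor, Adipoq-F2-KO over FFA2 fl/fl (points), with its 95% interval (bars) and a line at 0. The interval of Olr1, 1.20 to 2.24, lies to the right of all other points, and those of Marco and Stab2 are the widest. Olr1 was chosen for its genotype difference.

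Log2 fold changes of macrophage, vascular endothelial and adipocyte markers mostly shared a sign within each cell type, though few were called in edgeR. The part of these cell types in the differences was not tested. Of 19 tested macrophage markers, 18 had a positive log2 fold change and the median was 0.63. With edgeR 1 was called higher, Lyz2 (0.69, edgeR adjusted p = 0.0383), where 0.798% of all tested genes were, and with DESeq2 9 were called higher. With the filter of at least 1 count 8 were called higher and 1 lower. Over all genes DESeq2 called 4.67% higher and 1.53% lower, and this filter gave 3.76% higher and 1.16% lower. At an unadjusted p under 0.05 in edgeR, 10.5% of all tested genes were higher and 7.37% lower. In edgeR no macrophage marker was called without FFA2 fl/fl library 1 or 3, or without Adipoq-F2-KO library 2 or 3. Their summed level was 461 to 520 normalized CPM in FFA2 fl/fl and 625 to 690 in Adipoq-F2-KO libraries. All 11 vascular endothelial markers had a positive log2 fold change. With edgeR 0 of them were called and 8 were higher at an unadjusted p under 0.05, and 4 were called higher with DESeq2 (Cdh5, Cldn5, Pecam1 and Tek) and 8 with the filter of at least 1 count. Their summed level was 1168 to 1557 against 1607 to 2511, highest in Adipoq-F2-KO library 4. All 11 adipocyte markers had a negative log2 fold change (median -0.28), with 0 called by edgeR, 5 lower at an unadjusted p under 0.05, 2 called lower by DESeq2 (Lipe and Slc2a4) and 1 with the filter of at least 1 count. Their sum was lowest in Adipoq-F2-KO library 4 (34650). Of the neutrophil markers 2 of 9 passed the filter, with sums of 2.58 to 5.09, and Ly6g was at 0 in every library. The sum of 6 lymphatic endothelial markers was 28.8 to 40.01 against 28.5 to 42.4, of 10 fibroblast progenitor markers 842 to 1139 against 1221 to 1450, and of 7 smooth muscle and pericyte markers 521 to 627 against 652 to 1174. The sum of 6 mesothelial markers was 9.87 to 25.9 against 7.52 to 10.99, and that of 11 genes induced by tissue dissociation was 9052 to 10910 against 9256 to 10370.

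Each receptor was then set over the summed markers of each cell type, as normalized CPM per 1000 normalized CPM of the markers. Olr1 per macrophage markers was 4.23, 7.07 and 5.88 in FFA2 fl/fl and 12.1, 15.0, 15.8 and 14.5 in Adipoq-F2-KO libraries. The genotypes stayed apart on this scale, as they did per endothelial markers, at 2.07 ± 0.36 (SD, n = 3) against 5.10 ± 1.20 (SD, n = 4). Per adipocyte markers Olr1 was 0.0587 ± 0.016 (SD, n = 3) against 0.231 ± 0.0438 (SD, n = 4), again with 4 of 4 knockout libraries above every control. Olr1 was selected on its genotype difference, with a ratio of means of 3.30, and the marker sums differed less between genotypes. Its separation after division was therefore largely fixed in advance, and nothing about cell content is read from it.

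Other receptors are given on the same scales, and nothing about cell content is read from these ratios either. Per vascular endothelial markers Stab1 was 53.0, 44.9 and 49.9 in FFA2 fl/fl and 50.4, 50.3, 48.6 and 47.1 in Adipoq-F2-KO libraries. Every knockout library lay within the range of the controls on this scale. The endothelial marker sum was higher in every knockout library (1168 to 1557 against 1607 to 2511), and its part in this was not tested. Per macrophage markers Stab1 was 134.5 ± 0.233 (SD, n = 3) against 141.7 ± 22.8 (SD, n = 4), with 2 knockout libraries above and 2 below the controls. Per adipocyte markers it was 1.38 ± 0.0623 against 2.32 ± 0.759, with 4 of 4 knockout libraries above every control. Scarf1 per endothelial markers was 14.3 ± 0.315 (SD, n = 3) against 13.2 ± 1.58 (SD, n = 4), with 3 of 4 knockout libraries below every control. Per adipocyte markers Scarf1 was 0.4005 ± 0.0419 against 0.612 ± 0.154, with 4 of 4 knockout libraries above every control. Scarb1 per endothelial markers was 96.3 ± 12.4 (SD, n = 3) against 88.3 ± 4.61 (SD, n = 4), and per adipocyte markers 2.68 ± 0.144 against 4.14 ± 1.23, where 4 of 4 knockout libraries lay above the controls. Msr1 per macrophage markers was 4.12 ± 1.43 (SD, n = 3) against 4.66 ± 1.57 (SD, n = 4), with overlap, and Marco 5.59 ± 3.42 against 4.01 ± 3.23, with overlap.

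**Figure D4:**
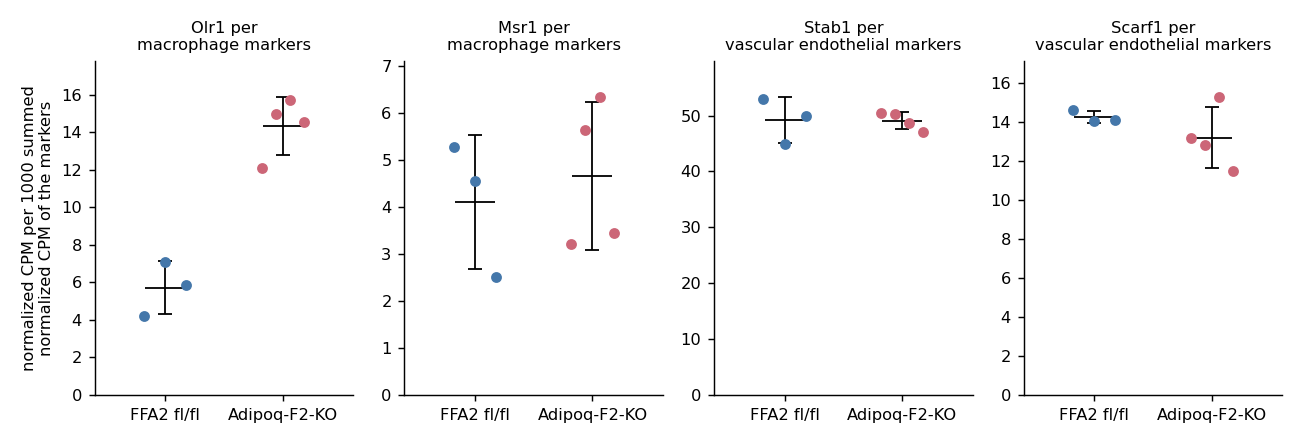
Normalized CPM of Olr1 and Msr1 per 1000 summed normalized CPM of the macrophage markers, and of Stab1 and Scarf1 per 1000 of the vascular endothelial markers, in each library (points; FFA2 fl/fl in blue, Adipoq-F2-KO in red) with mean and SD. The genotypes are apart for Olr1 (4.23 to 7.07 against 12.1 to 15.8) and not for Stab1 (44.9 to 53.0 against 47.1 to 50.4). Olr1 was selected on its genotype difference, and both marker sums were higher in every knockout library.

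Of 16 further scavenger receptors, 15 were tested. They were listed with earlier results of these data known, so the shares below are a description. With edgeR 3 were called higher, against 0.798% of all tested genes, and 0 lower. They were Cd44, the hyaluronan receptor (log2 fold change 1.02, standard error 0.17, edgeR adjusted p = 0.0332), Cxcl16, a membrane chemokine that binds oxidised LDL (0.97, standard error 0.20, edgeR adjusted p = 0.0475), and Cd68, the endosomal protein of macrophages (0.72, standard error 0.14, edgeR adjusted p = 0.0416). All 4 knockout libraries lay above the controls for 6 of the 15, against 8.86% of all tested genes. These included Clec7a and Mrc1 (edgeR adjusted p = 0.0968 and 0.0662), which DESeq2 called higher in addition to the 3, and the filter of at least 1 count also called 5. DESeq2 and that filter called 4.67% and 3.76% of all genes higher. The median log2 fold change was 0.39. Cd36, the fatty acid transporter and oxidised LDL receptor and the most abundant of the 15 per kilobase, had a mean of 3016 ± 41.4 (SD, n = 3) and 3266 ± 152 (SD, n = 4) normalized CPM in control and knockout libraries (log2 fold change 0.12, edgeR adjusted p = 0.524). Per kilobase, Cd36 was at 840 and 910 in the genotype means where Olr1 was at 0.793 and 2.62. In edgeR none of the 15 was called when FFA2 fl/fl library 1 or 3 or Adipoq-F2-KO library 2 or 3 was left out, and 1 was called without Adipoq-F2-KO library 4.

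Of 11 tested genes of cholesterol efflux and esterification 0 were called with edgeR, and at an unadjusted p under 0.05 2 were higher and 2 lower. DESeq2 called Apoa1 higher and Nr1h3 lower, and the filter of at least 1 count gave 2 higher and 1 lower. Among all genes 10.5% were higher and 7.37% lower at an unadjusted p under 0.05. DESeq2 called 4.67% of all genes higher and 1.53% lower, and the filter gave 3.76% and 1.16%. Nr1h3, the oxysterol receptor LXRa, was at 120 ± 11.3 against 93.0 ± 8.50 normalized CPM (log2 fold change -0.36, edgeR adjusted p = 0.108), and Abca1, the cholesterol exporter, had a log2 fold change of -0.10 (edgeR adjusted p = 0.669). Of 13 lysosomal proteins 0 were called with edgeR or DESeq2 and 1 was higher at an unadjusted p under 0.05 (Lipa), and their median log2 fold change was -0.02 beside the -0.07 of Scarb2.

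A list of 22 genes known to signal below LOX-1 or to induce it was drawn up with earlier results of these data known. The shares below are therefore a description and not independent evidence about LOX-1. With edgeR 5 of the 22 were called higher, against 0.798% of all tested genes, and 0 lower. Their median log2 fold change was 0.38. DESeq2 called 9 of them higher and the filter of at least 1 count 10, against 4.67% and 3.76% of all genes. The 5 were the cytokine Tnf (1.65, edgeR adjusted p = 0.0192), the chemokine Ccl2 (1.14, edgeR adjusted p = 0.0178), the adhesion molecules Sele (1.70, edgeR adjusted p = 0.0332) and Icam1 (1.16, edgeR adjusted p = 0.0464), and Cybb, the NADPH oxidase subunit (0.90, edgeR adjusted p = 0.0383). Sele, an endothelial gene, stood at 5.58, 8.67 and 6.62 normalized CPM in FFA2 fl/fl and 15.3, 20.5, 18.3 and 36.4 in Adipoq-F2-KO libraries. Pparg, known to induce Olr1 in adipocytes, was at 188, 213 and 214 normalized CPM against 229, 274, 242 and 244, without overlap (log2 fold change 0.27, edgeR adjusted p = 0.178). The AP-1 subunits Jun and Fos had log2 fold changes of -0.33 (edgeR adjusted p = 0.283) and -0.09 (edgeR adjusted p = 0.761), and the proteases Adam10 and Adam17 had 0.27 and 0.47 (edgeR adjusted p = 0.143 and 0.0824). In edgeR none of the 22 was called without FFA2 fl/fl library 1 or 3, and 2 were called without FFA2 fl/fl library 2 or without Adipoq-F2-KO library 2 or 3.

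To describe the company of Olr1, each tested gene with a mean of at least 1 normalized CPM was centred on its own mean of log2(normalized CPM + 0.5) over the 7 libraries and compared with Olr1 by the root mean square difference. Of 13507 genes, the 8 closest were Il6 (0.196), Itga5 (0.235), Adamts4 (0.250), Procr (0.258), Fosl1 (0.274), Ccl2 (0.275), Zswim6 (0.280) and Csf1 (0.286). This measure reads the genotype difference that selected Olr1, so that the 8 are higher in the knockout by construction. Il6, the interleukin, was at 18.9, 31.0 and 22.9 normalized CPM in FFA2 fl/fl and 41.8, 63.2, 80.5 and 83.3 in Adipoq-F2-KO libraries. As with Olr1, FFA2 fl/fl library 1 was the lowest of all and Adipoq-F2-KO library 1 the lowest of its genotype. Csf1, the macrophage growth factor, was at 56.9, 63.7 and 69.2 against 108, 174.5, 143 and 179 normalized CPM. Fosl1, a partner of Jun in AP-1, was at 9.27, 18.8 and 18.4 against 26.2, 31.2, 36.1 and 38.2 normalized CPM. None of the other receptors was among them. Stab1 had rank 1029 (0.615), Scarf1 1315 (0.644), Scarb1 1555 (0.661) and Msr1 1671 (0.671). Colec12 had rank 5879 (0.834), Scarb2 7867 (0.880), Stab2 9938 (0.929) and Marco 12670 (1.05).

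**Figure D5:**
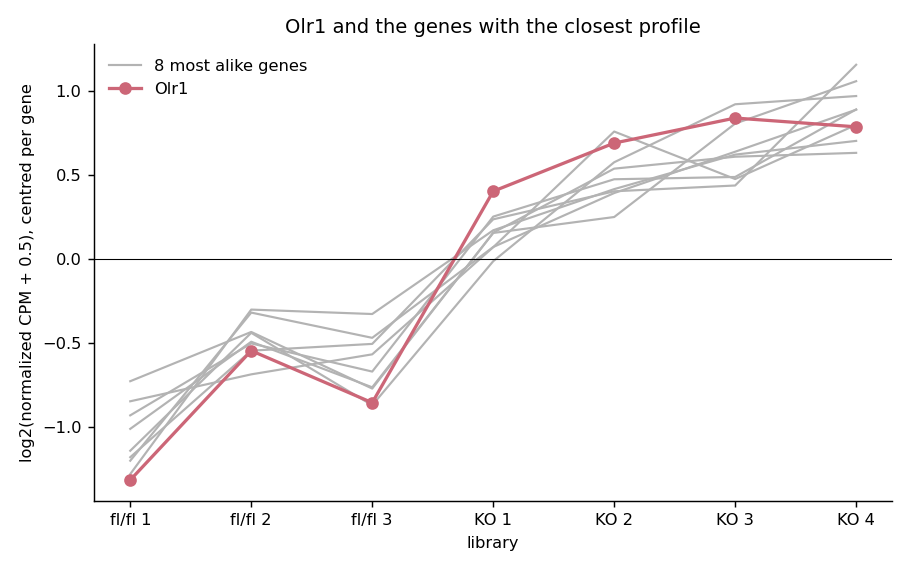
Log2(normalized CPM + 0.5) of Olr1 (red) and of the 8 genes with the most similar profile (grey), each centred on its mean over the 7 libraries, which are placed along the x axis in an order without meaning and joined by lines only to show which points belong to a gene. Olr1 and all 8 are below 0 in the 3 FFA2 fl/fl libraries and, but for 1 grey line near 0 in library 1, above 0 in the 4 Adipoq-F2-KO libraries.

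The neighbours of Olr1 on chromosome 6 were compared too. Within 300 kb in the table's coordinates lay 32 identifiers, of which 11 were tested. With edgeR 0 were called, and at an unadjusted p under 0.05 2 were higher and 2 lower, while DESeq2 called 2 higher, Clec7a and Clec12a. Over all tested genes 10.5% were higher and 7.37% lower at an unadjusted p under 0.05, and DESeq2 called 4.67% higher. The nearest tested gene, 12465 bases away, was Clec7a, the macrophage receptor for beta-glucans, at 3.02 ± 0.846 normalized CPM (SD, n = 3) against 6.45 ± 1.98 (SD, n = 4), without overlap (log2 fold change 1.09, edgeR adjusted p = 0.0968). Clec12a, an inhibitory myeloid lectin, was at 2.72 ± 0.308 (SD, n = 3) against 5.57 ± 1.19 (SD, n = 4), also without overlap (1.03, edgeR adjusted p = 0.0622). Clec1a, a lectin of endothelium, overlapped (0.46, edgeR adjusted p = 0.473), and Gabarapl1, an autophagy gene 25995 bases away, was at 172 ± 9.85 (SD, n = 3) against 144 ± 15.0 (SD, n = 4) with overlap (-0.25, edgeR adjusted p = 0.216).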

How the data were processed

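Gene counts of 7 adipocyte libraries, 3 FFA2 fl/fl and 4 Adipoq-F2-KO, were analysed, with genotypes taken from the sample titles. The authors used Trimmomatic for trimming, STAR for alignment and featureCounts for counting, and deposited whole-number counts per gene without normalization, with each gene's coordinates and exon length. Per the submitters' processing notes the build was GRCm38 (mm10), although the table's coordinates differ from it, and the strand and overlap options are not given in the sources used here. Between 85.5% and 88.8% of counts from 1 to 49 were even, so both mates of a pair appear to have been counted and counts overstate their own precision. Of 57010 identifiers, 52029 were matched to a symbol. Libraries of a genotype differed beyond sampling noise, with a chi-square of 37.8 to 146.5 per degree of freedom, so all 7 were kept. The labels do not state that each library is 1 animal, so the p-values measure the spread between these libraries, which may be partly technical.

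The deposited counts were filtered with filterByExpr, scaled with TMM (factors 0.968 to 1.02) and fitted on genotype alone with the quasi-likelihood functions of edgeR 4.0.16 (R 4.3.3). Tests were two-sided, and a gene was called under a Benjamini-Hochberg adjusted p of 0.05 over 17039 genes. Each standard error is the log2 fold change over the square root of the F statistic. DESeq2 1.42.0, RLE factors, a filter of at least 1 count, single libraries left out, the replicate number as a block, and libraries without mitochondrial genes and the most abundant gene were alternatives. Scripts were tested on simulated data.

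Named genes are the 9 receptors, Ffar2, the 8 tested genes most like Olr1, tested genes within 300 kb of it, and members of the lists beside their counts. The receptors, lists and rules were chosen with earlier results of these data known. Some genes of the lists are not reported here.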

Additional observations from a re-analysis of the deposited data

Results flagged for a closer look

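In 2 of 10 sets of 4 Adipoq-F2-KO libraries tested (the 9 receptors and Ffar2), 1 library lay further from the rest than Dixon's 95% critical value of 0.829 for 4 samples, where chance gives about 1 in 20. Marco was at 5.86 normalized CPM in Adipoq-F2-KO library 3 and at 1.40 to 1.76 in the other 3. Colec12 was at 27.6 normalized CPM in the same library and at 34.5 to 35.6 in the other 3, which is lower, whereas Marco was higher there. The cause was not tested.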

How the results depend on the processing

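The direction of the log2 fold change was kept in all 12 alternatives by Olr1, Msr1, Scarb1, Scarf1, Stab1 and Colec12. With DESeq2, 890 genes were called (670 higher, 220 lower) and 2 of the 9 receptors (Olr1 and Stab1). With the filter of at least 1 count, 1403 genes were called (1071 higher, 332 lower) and 3 receptors (Olr1, Scarb1 and Stab1). The fit of the report called 173 genes (136 higher, 37 lower). With single libraries left out, 1 to 178 genes were called, with 0 to 151 higher and 1 to 30 lower, and 0 to 1 receptors. The lowest counts came without FFA2 fl/fl library 1 (1 gene), FFA2 fl/fl library 3 (5) or Adipoq-F2-KO library 2 (11), and Olr1 was not called without any of these or without Adipoq-F2-KO library 3. These fits hold fewer samples. The sign of 3 receptors turned in such fits, with log2 fold changes of -0.84 to 0.57 for Marco, -0.33 to 0.15 for Stab2 and -0.12 to 0.0073 for Scarb2, and none was called. The number of neighbouring pairs in the order of levels that passed the test was 0 to 6 with single libraries left out, and 5 with a pseudocount of 0.1 in place of 0.01. Where it was 0, 5 pairs stood at the smallest p that 6 libraries allow (exact permutation test, adjusted p = 0.05). That 0 therefore does not show a changed order.

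Same-numbered libraries did not deviate together (correlations 0.10, -0.015 and -0.040), so the numbers do not pair them. With the replicate block, 224 genes were called (191 higher, 33 lower), 1 of the 9 receptors among them, and the log2 fold change of Olr1 was 1.71.

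Depth limits Stab2, Msr1 and Marco most, which had 24 to 212 counts per library. Olr1 had 73 to 146 counts in the FFA2 fl/fl libraries, within that range, so its control level is limited in the same way. At an unadjusted p under 0.05, 3047 genes passed in edgeR.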

Other observations

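Apoa1, Lcat and Apoe, picked from the 11 tested genes of cholesterol efflux and esterification, were not called in edgeR, and DESeq2 called Apoa1. All knockout libraries lay above all controls for 2 of the 11, against 8.86% of all tested genes, and below for 1, against 8.72%. Apoa1, the main protein of HDL and a ligand of Scarb1, was at 4.38, 1.56 and 3.46 normalized CPM in FFA2 fl/fl and at 6.22, 9.14, 5.75 and 19.2 in Adipoq-F2-KO libraries, without overlap (log2 fold change 1.68, standard error 0.45, edgeR adjusted p = 0.0987). Lcat, which esterifies the cholesterol of HDL, was at 0.946 ± 0.497 (SD, n = 3) against 2.16 ± 0.341 (SD, n = 4), also without overlap (log2 fold change 1.18, edgeR adjusted p = 0.194). Apoe, the most abundant apolipoprotein of the list, was at 6822 ± 419 (SD, n = 3) against 5188 ± 1235 (SD, n = 4) with overlap (log2 fold change -0.40, edgeR adjusted p = 0.253). Scarb2 per macrophage markers was 285.5 ± 43.3 (SD, n = 3) against 204 ± 24.7 (SD, n = 4) normalized CPM per 1000 of the markers. It was lower in 4 of 4 Adipoq-F2-KO libraries than in every control, while its own normalized CPM overlapped. The marker sum it was divided by was higher in every knockout library (461 to 520 against 625 to 690). Nothing about Scarb2 is therefore read from this ratio.

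Arg2, an arginase that LOX-1 is known to activate in endothelium, was at 0.107, 0.0504 and 0 normalized CPM in FFA2 fl/fl and at 0.452, 0.911, 0.360 and 0.848 in Adipoq-F2-KO libraries, without overlap (edgeR adjusted p = 0.110). All control values lay below 0.15 CPM, the lowest level that a count of 0 still allows in the control libraries. Arg2 thus passed the filter on low counts only through the knockout libraries, and nothing is read from the lack of overlap. All knockout libraries lay above all controls for 8.86% of tested genes.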
